A study of Homo sapiens with 8 samples.

Results

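The regions described here were the peaks in the tRNA gene cluster of human chromosome 6 (GRCh38), which lies beside histone genes. The interval searched began at 26000000, and the regions found in it ran from 26156327 to 28981749. Every peak of the genome lists there was taken, on either strand, except peaks at 3 excluded tRNA-Leu-CAA loci. Peaks that overlapped by at least 1 nt on a strand were merged, which gave 73 regions from 264 peaks, of 1373 regions in the whole series. A tRNA gene of RefSeq lay under 71 of the 73 regions. The interval holds 144 such genes, 3 of them at the excluded loci.

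The libraries came from human embryonic kidney cells labelled HEK-293, either wild type (WT) or with ALKBH1 knocked out (ALKBH1 KO). Per the study's methods the knockout lines were made by CRISPR/Cas9 in HEK 293T cells and grown from single sorted cells, and the labels do not say which KO line was used here. Fragmented total RNA of both lines was treated with the aldehyde-reactive probe (ARP), a biotin reagent that reacts with aldehydes, among them 5-formylcytosine (f5C), and a portion was kept as input before the streptavidin pulldown (IP). Each of the 4 groups, WT input, WT IP, KO input and KO IP, had 2 libraries. Nothing in the labels says that the replicates were separate cultures, so p-values measure the spread between these libraries, which may be technical.

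A tRNA gene is transcribed by RNA polymerase III into a precursor with a 5′ leader and a 3′ trailer, and some precursors also carry an intron next to the anticodon. ALKBH1 is a dioxygenase that oxidizes 5-methylcytosine to f5C in tRNA and also acts on 1-methyladenosine. Reads were mapped to mature tRNA first, so a peak at a tRNA gene in the genome lists came from reads that had not been placed on the mature references. A peak position marks where reverse transcription stopped, and its value is a cDNA count, the number of unique molecules in the peak.

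The members that carried the results differed in gene structure, and 5 of them are given here from the GRCh38 sequence. Each runs from 15 nt before the gene to 10 nt after it, except that TRA-AGC1-1 begins 20 nt before, where its region begins. They are written 5′ to 3′ on the strand of the gene, with the merged peak region in capitals. TRF-GAA1-1 and TRY-GTA1-1 had the highest WT IP counts relative to KO IP, TRL-CAA2-1 has a long gene, and TRA-AGC1-1 and TRA-AGC4-1 are alanine genes that behaved differently in the pulldown.
TRF-GAA1-1, chr6:28790712-28790809, minus strand: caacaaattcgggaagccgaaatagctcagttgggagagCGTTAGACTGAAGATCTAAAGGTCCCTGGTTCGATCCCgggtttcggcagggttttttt
TRY-GTA1-1, chr6:26568843-26568958, plus strand: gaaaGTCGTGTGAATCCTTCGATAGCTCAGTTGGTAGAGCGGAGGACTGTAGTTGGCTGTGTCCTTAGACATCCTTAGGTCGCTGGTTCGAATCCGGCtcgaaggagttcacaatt
TRL-CAA2-1, chr6:27605628-27605760, minus strand: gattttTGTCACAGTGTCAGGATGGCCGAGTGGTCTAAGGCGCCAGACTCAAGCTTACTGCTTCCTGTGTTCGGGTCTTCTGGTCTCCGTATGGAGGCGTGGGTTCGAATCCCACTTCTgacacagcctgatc
TRA-AGC1-1, chr6:28795954-28796055, minus strand: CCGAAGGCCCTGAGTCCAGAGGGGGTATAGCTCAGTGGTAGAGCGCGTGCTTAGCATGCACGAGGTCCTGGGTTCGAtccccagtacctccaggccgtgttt
TRA-AGC4-1, chr6:28658227-28658323, minus strand: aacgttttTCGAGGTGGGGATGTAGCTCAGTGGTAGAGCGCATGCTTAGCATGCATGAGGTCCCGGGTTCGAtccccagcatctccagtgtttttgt

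The capitals of TRY-GTA1-1 begin in the leader and run across the intron, whereas those of TRF-GAA1-1 lie inside the gene. The genes of TRA-AGC1-1 and TRA-AGC4-1 differ at 7 of 72 aligned bases (90.3% identity). TRF-GAA1-1 and TRF-GAA1-2 have identical genes, and 5 other RefSeq genes share the sequence of each. In all, 28 members lie on a gene with at least 1 identical copy elsewhere in the genome. Since the authors kept only uniquely mapping genome reads, counts at such copies are uncertain.

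Summed over both peak lists, the libraries held between 48380 counts (WT IP replicate 2) and 285539 counts (KO input replicate 2). A peak is listed from a count of 10 upwards, and that minimum was worth 102 to 106 CPM (the summed counts of a library scaled to 1000000) in WT input, 153 and 207 CPM in WT IP, 51.4 and 35.0 CPM in KO input and 187 and 192 CPM in KO IP. A region without a peak in a library is called uncalled here, which means too few counts or no cluster and not that the RNA was lacking.

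The number of the 73 regions with a peak was 35 and 33 in WT input, 41 and 36 in WT IP, 37 and 58 in KO input and 12 in each KO IP. The WT IPs and KO IPs did not overlap in this number although their list minima were near each other, and KO input replicate 2, the deepest library, had the most. Over the whole series the number was 548 and 399 in WT IP and 386 and 362 in KO IP, which did not overlap either. The peaks covered 1718 and 1867 nt in WT IP and 426 and 492 nt in KO IP, with mean counts per peak of 48.0 and 51.7 against 33.3 and 33.4.

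These regions held 1.83% and 1.67% of the counts of WT input and 3.01% (Wilson 95% interval 2.88 to 3.14) and 3.85% (3.68 to 4.02) of WT IP. In KO cells they held 1.26% and 1.33% of the input counts and 0.749% (0.679 to 0.826) and 0.769% (0.698 to 0.848) of the IP counts. The intervals cover counting error only. The share was thus above the inputs in both WT IPs and below them in both KO IPs, with no overlap between the 4 groups, at 1.75% ± 0.117, 3.43% ± 0.591, 1.29% ± 0.0474 and 0.759% ± 0.0144 for WT input, WT IP, KO input and KO IP (SD, n = 2 each). Taken of the genome-list counts alone, the shares were 7.40% and 7.25% in WT input and 7.35% and 9.42% in WT IP, which overlapped, and 4.99% and 4.63% in KO input and 2.87% and 3.12% in KO IP, which did not. An exact two-sided permutation test of the shares of all counts gave p = 0.333 for WT IP against KO IP, for IP against input within each line and for the inputs, the smallest p that 2 libraries against 2 allow.

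**Figure D1:**
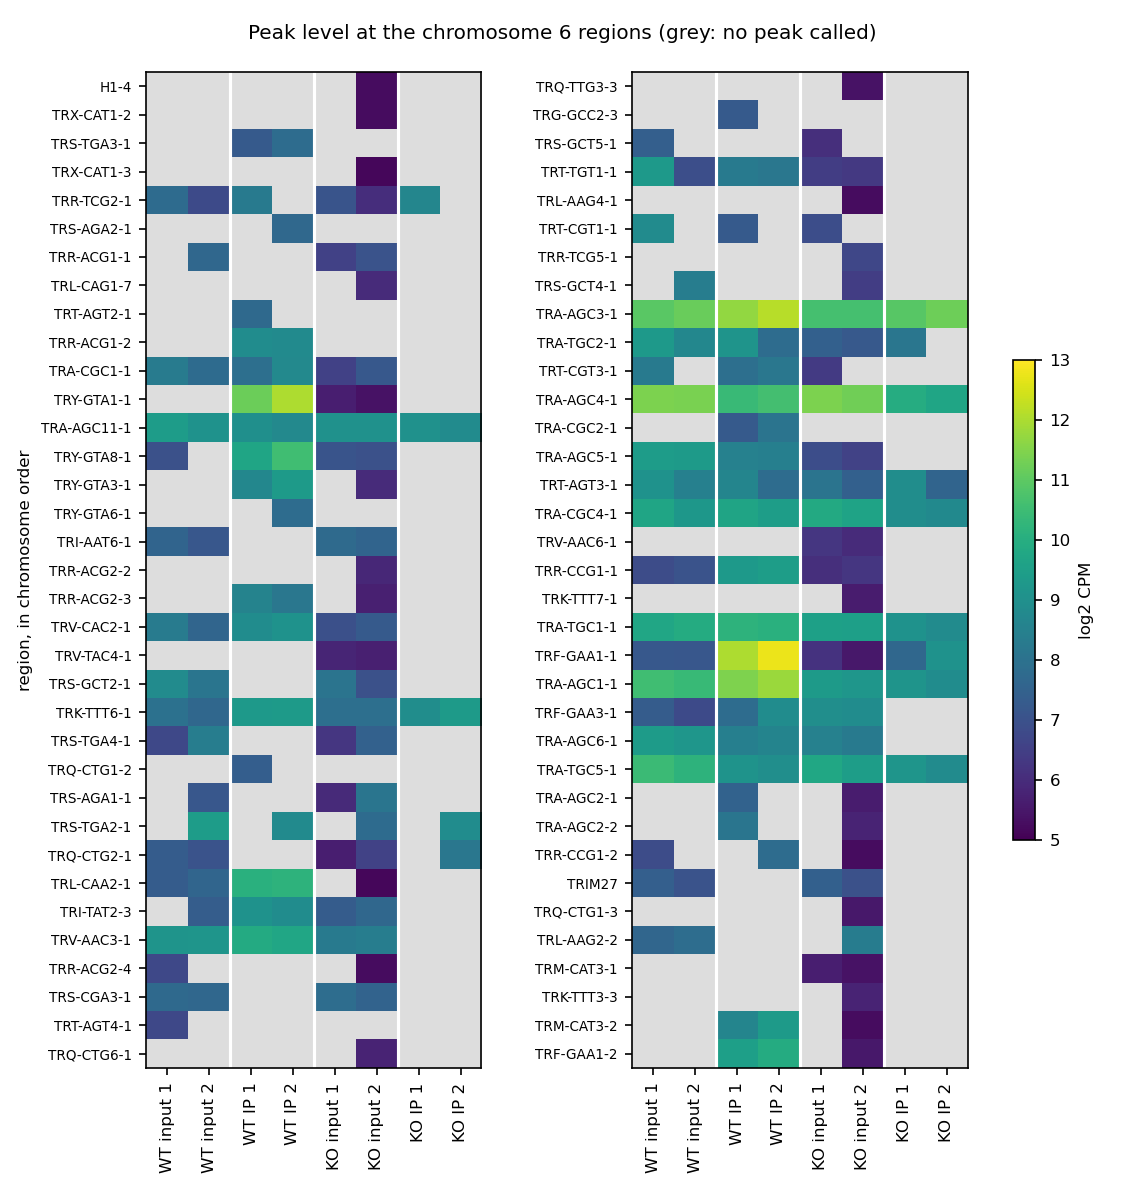
Level of 70 of the 73 regions (rows, in chromosome order) in each of the 8 libraries (columns), as log2 CPM by colour, with grey where no peak was called. The KO IP columns are grey for all but 12 regions each, and TRF-GAA1-1, TRA-AGC3-1, TRA-AGC1-1 and TRY-GTA1-1 are bright in WT IP.

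Of the members, 20 had a peak in a single library and 10 had one in all 8. The strand of the gene could be read from the sequence for 70 of the 71 members over a tRNA gene, and the peaks lay on that strand at all 70. The merged regions were 2 to 167 nt wide, with a median of 68 nt.

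A region began before the gene at 50 of these 70 members, by 1 to 24 nt with a median of 7 nt, and so held part of the 5′ leader. The other 20 began inside the gene, 12 of them at positions 25 to 27 counted from the first base of the gene. Beyond the 3′ end of the gene ran 13 regions, the longest by 72 nt.

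The T-arm holds a conserved adenosine, A58 in the usual tRNA numbering, that is often methylated to 1-methyladenosine, a modification known to stop reverse transcription. A script found this adenosine in 65 of the genes from the letters TTCNA, searched on the strand of the gene near its 3′ end. The merged region ended exactly at it in 23 members and within 2 nt of it in 32. Of the 240 library peaks at these genes, 78 (32.5%) ended exactly at that adenosine, with 11 of 39 and 12 of 34 in WT IP and 0 of 11 in each KO IP. The KO IP peaks came from 12 regions each, and the difference was not tested. The 0 holds for exact ends only. In both KO IPs the peak of TRA-AGC3-1 ended at position 58, with its adenosine at 57, as it did in every other library. That of TRA-TGC5-1 ended at 55 in both KO IPs, with its adenosine also at 57.

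The share of counts in peaks that began in the leader was 34.4% and 36.6% in WT input, 42.9% and 48.8% in WT IP, 33.3% and 64.3% in KO input and 54.8% and 61.9% in KO IP. The KO inputs differed from each other more than the WT groups did. TRA-AGC4-1 is an example of how the extent moved with the library, since its peak began at position 25 in KO input replicate 1 and in the leader in KO input replicate 2.

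**Figure D2:**
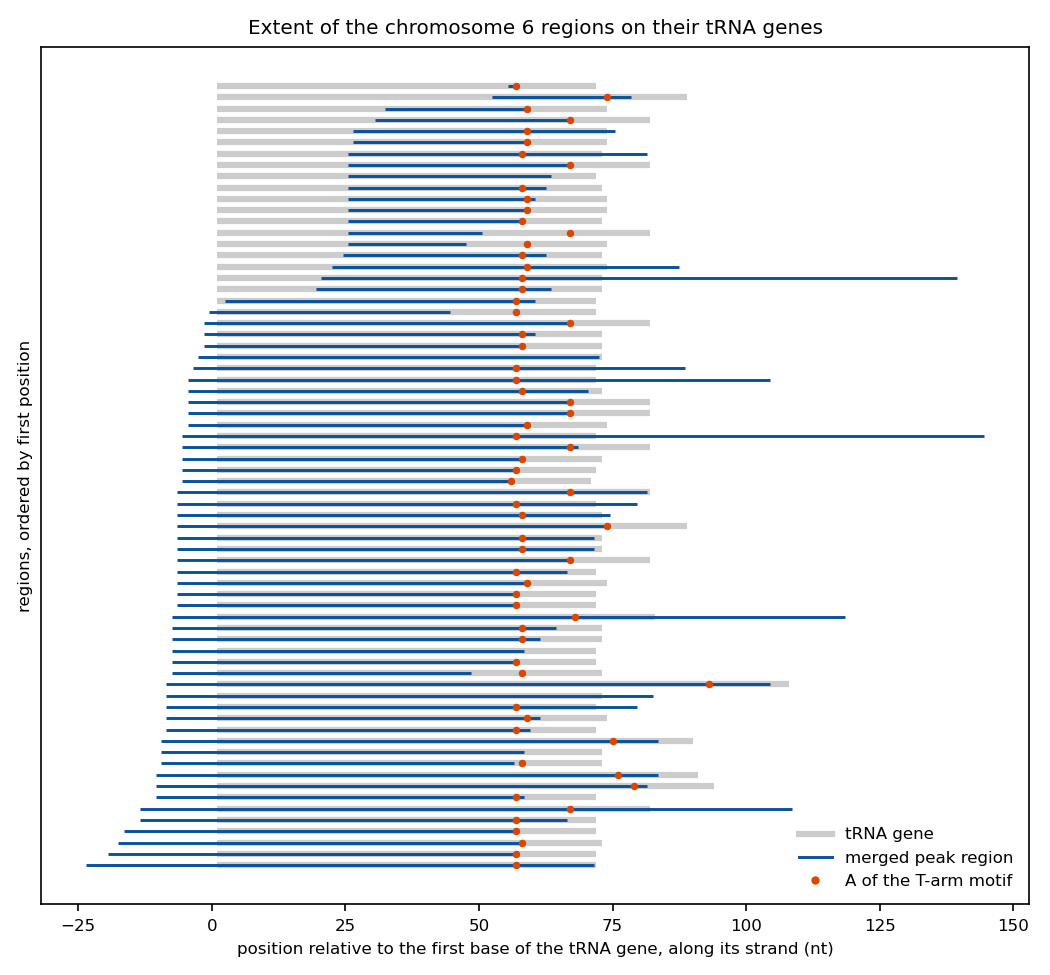
Extent of the 70 oriented regions (blue) along their tRNA genes (grey), in nt from the first base of the gene, with the adenosine of the T-arm motif in orange. In 50 regions the blue line begins left of the gene, and in 23 it ends at the orange point.

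The alanine genes dominated the cluster. Their 14 regions summed to 12301 and 11537 CPM in WT input, 12627 and 14076 in WT IP, 8838 and 8209 in KO input and 5897 and 5543 in KO IP, with uncalled libraries taken as 0. Of the 10 members with a peak in every library, 7 were alanine genes.

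The phenylalanine genes, taken as a sum, were low in every library but the WT IPs. Their 3 regions summed to 308 and 255 CPM in WT input, 5091 and 8454 in WT IP, 566 and 567 in KO input and 206 and 537 in KO IP. The WT IP sums lay above those of the 6 other libraries without overlap. TRF-GAA1-1 held 4128 and 7007 CPM of them, and TRF-GAA1-2 held 734 and 971. TRF-GAA3-1 did not follow the sum, with 494 and 476 CPM in KO input against 229 and 475 in WT IP.

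The 4 tyrosine regions summed to 3593 and 6532 CPM in WT IP and 185 and 231 in KO input, and none had a KO IP peak. In the WT inputs a single tyrosine peak was called, in replicate 1, at 127 CPM. The isoleucine regions reached 1666 and 2150 CPM in WT IP, against 191 and 306 in WT input, and the 4 valine regions reached 1422 and 1385 against 881 and 775. Neither isotype had a KO IP peak. The serine genes differed from these, with 955 and 1979 CPM in WT input and 153 and 889 in WT IP.

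The 6 members on a long gene, taken as one with an intron (over 84 nt, or over 95 nt for leucine and serine), were TRY-GTA1-1, TRY-GTA8-1, TRY-GTA3-1, TRY-GTA6-1, TRI-TAT2-3 and TRL-CAA2-1. They summed to 287 and 357 CPM in WT input, 5198 and 8165 in WT IP and 345 and 469 in KO input, and no KO IP peak was called at any of them. Of these genes 5 had a peak in both WT IPs. Their WT input peaks were at 127 to 194 CPM, near or under the list minimum of 187 and 192 CPM in KO IP.

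The first base of the anticodon, which pairs with the wobble position of the codon, was C in 19 members. These summed to 3014 and 1683 CPM in WT input, 4342 and 4981 in WT IP, 1743 and 1842 in KO input and 487 and 729 in KO IP. The 52 members with another first base summed to 15146 and 14862, 25744 and 33464, 10689 and 11270, and 7001 and 6962 CPM in the same order. A peak in both WT IPs was present at 8 of the 19 and 24 of the 52, and 7 and 14 of these had no KO IP peak. The same was true of 98 of 349 regions over the whole series (28.1%) and 33 of 57 tRNA gene loci outside these regions (57.9%). The difference between the 8 and the 24 was not tested.

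**Figure D3:**
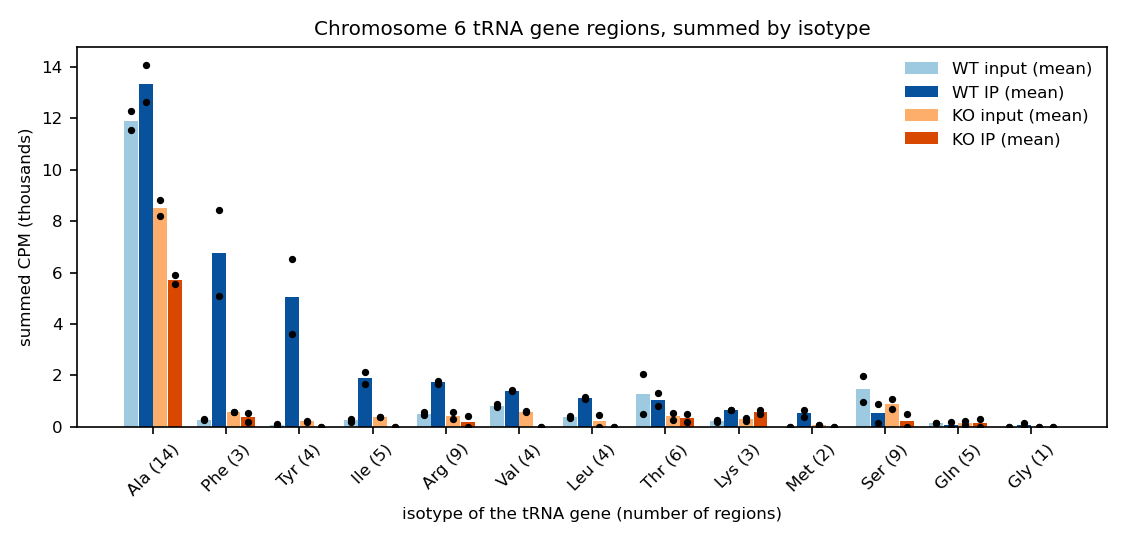
CPM summed over the regions of each isotype (number of regions in brackets), with bars for the mean of 2 libraries and points for each library, uncalled regions at 0. Alanine is high in all groups, and the phenylalanine and tyrosine bars stand at 6772 and 5062 CPM in WT IP and at most at 567 in the other groups.

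A peak in both WT IPs was present at 32 of the 73 regions, and 21 of these 32 (65.6%) had no peak in either KO IP. Over the whole series 98 of 349 regions with both WT IP peaks had none in KO IP (28.1%). The 123 tRNA gene loci outside these regions gave 33 of 57 (57.9%), and the difference between these shares was not tested. In the opposite direction, 10 members had a peak in both KO IPs and 0 of them lacked a peak in WT IP, against 43 of 300 over the whole series (14.3%). When only peaks of at least 207 CPM were counted, the highest list minimum among the IPs, 19 of 30 members and 89 of 324 regions (27.5%) met the first rule.

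Most of the 21 were also seen in the inputs. A KO input peak was listed for 17 of them and both KO inputs had one for 11, while 9 had no WT input peak. No fold is given for these regions against the KO IPs, because the level there is known only to be under the list minimum where the reads clustered at all.

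TRY-GTA1-1, a tRNA-Tyr gene with an intron, was the highest. It had 154 and 200 counts in WT IP and 10 and 12 in KO input, and was uncalled in WT input and KO IPs, so its WT IP level of 3244 ± 1258 CPM (SD, n = 2) stood against list minima of 102 to 192 CPM in those libraries. Its WT IP peaks began in the leader and ended at positions 82 and 83 of the 91 nt gene.

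TRY-GTA8-1, another tRNA-Tyr gene with an intron, had 54 and 73 counts in WT IP, 12 in WT input replicate 1 and 26 and 36 in KO input. TRF-GAA1-2 had 48 and 47 counts in WT IP and 13 in KO input replicate 2. At both genes the WT IP peaks were the highest of any library.

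TRL-CAA2-1 is a tRNA-Leu-CAA gene outside the 3 excluded loci. It had 15 and 19 counts in WT input, 70 and 56 in WT IP and 10 in KO input replicate 2. Its WT input and WT IP levels, 176 ± 24.5 and 1114 ± 61.8 CPM (SD, n = 2 each), did not overlap.

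TRV-AAC3-1, for tRNA-Val, was high in the inputs as well, with 53 and 57 counts in WT input, 62 and 41 in WT IP and 61 and 96 in KO input. Another 15 regions of this kind had 10 to 41 counts in WT IP. They included TRF-GAA3-1, whose 96 and 136 counts in KO input exceeded the 15 and 11 in WT input and the 15 and 23 in WT IP.

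**Figure D4:**
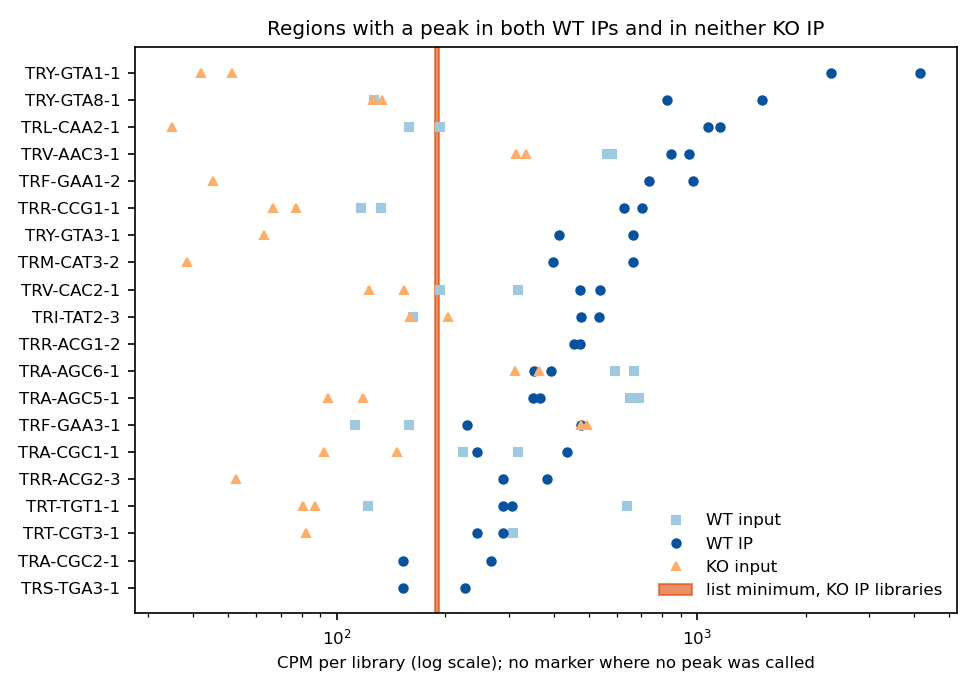
CPM per library (log axis) of 20 of the 21 regions with a peak in both WT IPs and in neither KO IP, with no marker where a library had no peak. The orange band is the list minimum of the KO IP libraries, 187 to 192 CPM. The WT IP points of all but 2 regions lie to its right, and TRY-GTA1-1 lies farthest right.

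For tests across the series, regions listed in each of the compared libraries were fitted together with edgeR (quasi-likelihood test, Benjamini-Hochberg adjusted p under 0.05, two-sided). All fold changes below are log2 differences with their standard error (SE). The filter leaves out every region that was uncalled in one of the libraries, and so the 21 above are absent from any test with the KO IPs.

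In WT cells the question was which regions the ARP pulldown enriched, and 20 of the 73 members could be tested. Of these 5 rose (25%) against 23% of all 243 regions tested, and 4 fell (20%) against 25.1%. The median log2 change was 0.23 over the members and -0.17 over all regions tested. Of the 30 tRNA gene loci tested outside these regions, 16 rose and 4 fell, with a median of 0.91. As a group the members were thus called about as often as all regions tested and rose less often than those outside loci. The difference from those loci was not tested. With RLE scaling the split was 8 higher and 3 lower in place of 5 and 4, with DESeq2 5 and 0, and without WT IP replicate 2 it was 4 and 1. Without WT input replicate 1 it was 9 and 0, without WT input replicate 2 it was 8 and 1, and without WT IP replicate 1 it was 7 and 2.

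TRF-GAA1-1, for tRNA-Phe, had the strongest rise. It had 14 counts in each WT input and 270 and 339 in WT IP, 146 ± 4.09 and 5567 ± 2036 CPM (SD, n = 2 each). The groups did not overlap, and the change was 5.18 ± 0.41 (SE, edgeR adjusted p = 0.00147). Its WT inputs, at 149 and 143 CPM, lay under the WT IP list minima of 153 and 207 CPM. TRF-GAA1-1 could thus enter this fit only with a rise in CPM, so its direction was set by the filter.

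TRL-CAA2-1 rose by 2.58 ± 0.24 (SE, edgeR adjusted p = 0.00172). TRR-CCG1-1, for tRNA-Arg, had 11 and 13 counts in WT input and 41 and 34 in WT IP and rose by 2.33 ± 0.25 (SE, edgeR adjusted p = 0.0025). Both had no KO IP peak. The WT inputs of TRR-CCG1-1, at 117 and 133 CPM, lay under the WT IP list minima of 153 and 207 CPM. At that input level TRR-CCG1-1 could enter this fit only with a rise in CPM, so its direction was set by the filter.

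TRK-TTT6-1, for tRNA-Lys, had 24 and 20 counts in WT input and 42 and 32 in WT IP and rose by 1.43 ± 0.24 (SE, edgeR adjusted p = 0.0103). TRA-AGC1-1 had 142 and 133 counts against 183 and 174 and rose by 1.09 ± 0.22 (SE, edgeR adjusted p = 0.0176). In CPM the IP libraries of both genes lay above the inputs.

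The members that fell were all alanine genes, the most frequent isotype among the members tested. TRA-TGC5-1 had 132 and 112 counts in WT input and 36 and 24 in WT IP, with a change of -1.34 ± 0.22 (SE, edgeR adjusted p = 0.00998). TRA-AGC4-1 had 257 and 266 against 89 and 75 counts, with a change of -0.97 ± 0.18 (SE, edgeR adjusted p = 0.0133). TRA-AGC5-1 and TRA-AGC6-1 changed by -0.97 ± 0.21 and -0.83 ± 0.23 (SE, edgeR adjusted p = 0.0213 and 0.0427), from 65 and 64 to 24 and 17 counts and from 63 and 58 to 23 and 19 counts.

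In KO cells 10 members could be tested. Of these 2 rose (20%) against 25.6% of 246 regions, and 3 fell (30%) against 30.9%. The median log2 change was -0.27 over the members and 0.04 over all regions tested. Of the 19 tRNA gene loci tested outside these regions, 10 rose and 2 fell, with a median of 1.03. With peak totals as library sizes the split of the members was 2 higher and 2 lower.

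TRF-GAA1-1 rose in KO cells too, from 14 and 13 counts in KO input to 11 and 28 in KO IP, which was 58.8 ± 18.7 and 371 ± 234 CPM (SD, n = 2 each). The change was 2.59 ± 0.50 (SE, edgeR adjusted p = 0.00549). The KO IP libraries were at 206 and 537 CPM at this gene, and their peaks ended at position 37 rather than at 59 and 62 as in WT IP. Its KO inputs, at 72.0 and 45.5 CPM, lay under the KO IP list minima of 187 and 192 CPM. At that input level the gene could enter this fit only with a rise in CPM, so the direction was set by the filter.

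TRK-TTT6-1 rose by 1.14 ± 0.23 (SE, edgeR adjusted p = 0.00615), from 47 and 69 to 26 and 34 counts in libraries of unequal depth, which was 242 ± 0.00314 and 569 ± 117 CPM (SD, n = 2 each). TRA-AGC4-1 went from 536 and 705 counts in KO input to 53 and 43 in KO IP and changed by -1.62 ± 0.20 (SE, edgeR adjusted p = 0.000899). TRA-CGC4-1 and TRA-TGC1-1 changed by -0.98 ± 0.23 and -0.67 ± 0.21 (SE, edgeR adjusted p = 0.0105 and 0.032).

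The IPs of the lines were compared directly to ask which pulled-down regions differed with ALKBH1. Of the 10 members tested, 6 were higher in the WT IP (60%) against 18.6% of 220 regions, and 0 were lower against 18.6%. Of the 18 tRNA gene loci tested outside these regions, 8 were higher and 1 lower. The median log2 difference was 0.95 over the members and 0.03 over all regions tested, and 0.53 over the 18 tRNA gene loci tested outside these regions. At an unadjusted p under 0.05, 6 members were higher and 0 lower, and DESeq2 called 3 higher and 0 lower. With peak totals as library sizes, which put the median of all regions at -0.22, 4 were higher. Without KO IP replicate 1 the count was 2, and without KO IP replicate 2 it was also 2, TRF-GAA1-1 and TRA-AGC1-1 in both cases.

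TRF-GAA1-1 differed by 4.15 ± 0.42 (SE, edgeR adjusted p = 0.000103), with 270 and 339 counts in WT IP and 11 and 28 in KO IP. TRA-AGC1-1 differed by 2.86 ± 0.29 (SE, edgeR adjusted p = 0.000103), with 183 and 174 counts against 30 and 25. In neither gene did the IP libraries of the lines overlap.

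TRA-TGC1-1 had 76 and 52 counts in WT IP and 29 and 24 in KO IP, a difference of 1.41 ± 0.31 (SE, edgeR adjusted p = 0.00732). TRA-AGC3-1, the member with the highest counts in KO IP, had 216 and 220 against 103 and 126 counts, a difference of 1.10 ± 0.24 (SE, edgeR adjusted p = 0.00661). TRA-CGC4-1 and TRA-AGC4-1 differed by 0.96 ± 0.31 and 0.93 ± 0.29 (SE, edgeR adjusted p = 0.0381 and 0.0361). The 4 members that did not pass, TRK-TTT6-1, TRA-TGC5-1, TRA-AGC11-1 and TRT-AGT3-1, had differences of 0.45 ± 0.31, 0.27 ± 0.32, 0.19 ± 0.32 and 0.16 ± 0.48 (SE).

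The inputs were compared to see how the regions stood before the pulldown. Of 26 members tested, 7 were higher in WT input (26.9%) against 15.5% of 400 regions, and 1 was lower (3.85%) against 19.8%. Of the 44 tRNA gene loci tested outside these regions, 11 were higher and 2 lower. The median log2 difference was 0.82 over the members and -0.0041 over all regions tested, and 0.66 over the 44 tRNA gene loci tested outside these regions. The calls among the members depended on single libraries. Without WT input replicate 1 there were 3 higher and 1 lower, and without WT input replicate 2, KO input replicate 1 or KO input replicate 2 there were 0, with 9, 7 and 6 higher and 1 lower in each at an unadjusted p under 0.05. DESeq2, run on all 4 input libraries, called 2 higher and 0 lower.

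TRA-AGC5-1 had 65 and 64 counts in WT input and 23 and 27 in KO input, which are 671 ± 26.2 and 106 ± 16.8 CPM (SD, n = 2 each), a difference of 2.70 ± 0.24 (SE, edgeR adjusted p = 0.0149). TRA-TGC2-1 had 59 and 41 counts against 34 and 43, a difference of 1.73 ± 0.30 (SE, edgeR adjusted p = 0.0248). In CPM the lines did not overlap at either gene.

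TRF-GAA1-1, TRA-AGC1-1 and TRA-CGC1-1 were higher in WT input by 1.38 ± 0.35, 1.24 ± 0.16 and 1.21 ± 0.32 (SE, edgeR adjusted p = 0.0452, 0.0197 and 0.0492). At TRF-GAA1-1 the KO inputs were at 72.0 and 45.5 CPM, under the WT input list minima of 106 and 102 CPM. That gene could enter this fit only with a higher WT input, so its direction was set by the filter. The counts of TRA-AGC1-1 were 142 and 133 in WT input and 127 and 169 in the deeper KO inputs. TRF-GAA3-1, for tRNA-Phe, was the member that was lower, at 136 ± 33.2 and 485 ± 12.2 CPM (SD, n = 2 each), a difference of -1.79 ± 0.26 (SE, edgeR adjusted p = 0.0209). Its gene differs from that of TRF-GAA1-1 at 2 of 73 aligned bases.

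Since the inputs of the lines differed too, the interaction of genotype and pulldown compared the ratio of IP to input in WT with that in KO. Of the 10 members tested, 5 had a higher ratio in WT (50%) against 19.9% of 186 regions, and 0 a lower one against 10.2%. Of the 16 tRNA gene loci tested outside these regions, 5 had a higher ratio and 0 a lower one. The median log2 difference was 0.89 over the members and 0.04 over all regions tested, and 0.13 over the 16 tRNA gene loci tested outside these regions. At an unadjusted p under 0.05, 6 members were higher and 0 lower, and DESeq2 called 2 higher and 0 lower. The median of all regions moved to -0.14 with RLE scaling and to -0.34 with peak totals as library sizes, under which 5 and 3 members were called, all of them higher in WT. Without WT input replicate 1 or KO IP replicate 2 the count was 2, and without WT input replicate 2 or KO input replicate 1 it was 1.

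TRA-AGC1-1 was called in the interaction by every alternative that was run. Its log2 IP to input ratio was 1.48 ± 0.19 in WT and -0.31 ± 0.22 in KO (SE, fit over 8 libraries), a difference of 1.79 ± 0.29 (SE, edgeR adjusted p = 0.00362). TRF-GAA1-1 had ratios of 5.56 ± 0.46 and 2.61 ± 0.52, a difference of 2.94 ± 0.70 (SE, edgeR adjusted p = 0.0193). The ratio of TRF-GAA1-1 was thus above 0 in both lines, while that of TRA-AGC1-1 was above 0 in WT and near 0 in KO. In both lines the input of TRF-GAA1-1 lay under the list minima of the IPs. A log2 ratio above 0 in CPM was therefore needed for that gene to enter the fit.

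TRA-CGC4-1 and TRA-TGC1-1 had ratios of 0.41 ± 0.23 and 0.60 ± 0.21 in WT and -0.94 ± 0.23 and -0.63 ± 0.22 in KO, differences of 1.35 ± 0.32 and 1.23 ± 0.30 (SE, edgeR adjusted p = 0.0193 and 0.0207). TRA-AGC4-1 was below 0 in both lines, at -0.59 ± 0.18 and -1.58 ± 0.19, a difference of 0.99 ± 0.26 (SE, edgeR adjusted p = 0.0282). TRA-AGC3-1, at 1.17 ± 0.22 and 0.39 ± 0.22, missed the threshold (0.78 ± 0.30, SE, edgeR adjusted p = 0.0956). TRA-TGC5-1 and TRT-AGT3-1 had the opposite sign, with differences of -0.29 ± 0.33 and -0.73 ± 0.65 (SE) that did not pass.

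**Figure D5:**
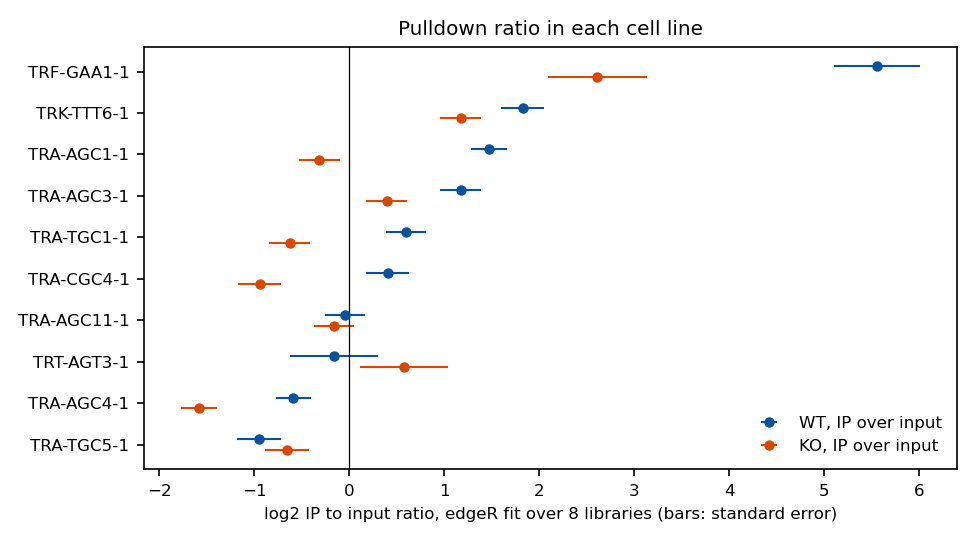
Log2 IP to input ratio of the 10 regions with a peak in all 8 libraries, in WT (blue) and KO cells (orange), from the edgeR fit over 8 libraries, with bars for the standard error. TRF-GAA1-1 stands at 5.56 in WT and 2.61 in KO, and TRA-AGC4-1 and TRA-TGC5-1 are below 0 in both lines.

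The authors' tRNA lists hold mature references, and 50 members have one of the same name. These values come from other reads and often from several identical genes together, so they are set beside the gene loci without a test of the difference. Mature tRNA-Phe-GAA-1, which pools 6 gene copies, had 979 and 904 counts in WT IP and 644 and 609 in KO IP, a log2 difference of 0.76 ± 0.13 (SE, edgeR adjusted p = 0.00233) beside 4.15 ± 0.42 (SE) at TRF-GAA1-1. In the WT pulldown the mature form rose by 0.75 ± 0.16 (SE, edgeR adjusted p = 0.0214) beside 5.18 ± 0.41 (SE) at the gene. The direction at the gene was set by the filter.

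For TRL-CAA2-1 the values were close, with 28 and 34 counts in WT input and 124 and 87 in WT IP on the mature reference, a change of 2.45 ± 0.21 (SE, edgeR adjusted p = 0.00162) beside 2.58 ± 0.24 (SE) at the gene. Mature tRNA-Arg-CCG-1 did not pass in the WT pulldown, at -0.62 ± 0.50 (SE, edgeR adjusted p = 0.378), while TRR-CCG1-1 rose with its direction set by the filter. Between the IPs that mature form was higher in WT by 2.01 ± 0.29 (SE, edgeR adjusted p = 0.000946), with 136 and 130 counts against 40 and 34.

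Of the 73 regions, 2 lay on no tRNA gene. The region in TRIM27, chr6:28917005-28917007 on the minus strand in an intron of that gene, had 16 and 13 counts in WT input and 34 and 36 in KO input and no IP peak. Its inputs differed by 0.06 ± 0.32 (SE, edgeR adjusted p = 0.892). The region in H1-4, a linker histone gene, had a single peak of 11 counts in KO input replicate 2.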

How the data were processed

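The deposited values were peak lists made by the authors in each library separately. Per the study's methods, the authors used the iCount pipeline with unique molecular identifiers, mapped reads with STAR to tRNA and rRNA and then to GRCh38, kept uniquely mapping genome reads and called peaks with Paraclu. Each deposited value is a cDNA count per peak without normalization. The GRCh38 FASTA held 25 of the 26 sequence names used by these lists. Here, peaks were merged by 1 nt overlap on a strand, counts were summed per region and library, and CPM used the summed counts of both lists. Such sums also follow how many peaks a library had. tRNA genes were taken from RefSeq (GRCh38.p14), which gave no strand in the table used, so strand was read from the T-arm motif and the anticodon, and other genes from GENCODE release 44. Regions listed in all libraries compared entered edgeR 4.0.16 (R 4.3.3, TMM, quasi-likelihood), with DESeq2 1.42.0 as an alternative, in 5 comparisons with only the compared groups in each fit, after a test on simulated data. The SE was the log2 fold change divided by the square root of F. The members, gene lists and tests were chosen with earlier results of these data known. Named were members with a peak in all 8 libraries, the 6 highest of those with both WT IP peaks and no KO IP peak, the 5 largest called changes per direction and comparison, and members on no tRNA gene. TRR-CCG1-1 and TRF-GAA3-1 also fall under the called changes. Other scalings, fillings of uncalled libraries, a mean count minimum of 50, the replicate number as a factor and leaving out each library were the alternatives. A spike-in was not analysed here. The sequence and values of 1 of those 6 members are not reported here.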

Additional observations from a re-analysis of the deposited data

Results flagged for a closer look

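The IP to input ratio differed between WT and KO cells at 5 of the 10 chromosome 6 regions that could be tested, by the interaction term of the edgeR fit over 8 libraries. As log2 differences of WT minus KO these were 2.94 at TRF-GAA1-1 (edgeR adjusted p = 0.0193), 1.79 at TRA-AGC1-1 (0.00362), 1.35 at TRA-CGC4-1 (0.0193), 1.23 at TRA-TGC1-1 (0.0207) and 0.99 at TRA-AGC4-1 (0.0282). In each of the 5 the WT ratio was the higher. They were 50% of the 10 members tested, and 19.9% of the 186 regions tested across the series were called higher in WT. Of the 16 tRNA gene loci tested outside these regions, 5 were called higher. At TRF-GAA1-1 the KO IP counts were 11 and 28, so the KO ratio rests on few molecules.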

How the results depend on the processing

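The interval gave 73 regions under every merging rule tried. Beside the share of counts in the report, genome-list counts as the denominator gave 7.33% in WT input, 8.39% in WT IP, 4.81% in KO input and 2.996% in KO IP. Peaks with a count above 20 gave 1.57% in WT input, 1.20% in KO input and 0.733% in KO IP, and keeping the excluded Leu-CAA loci gave 4.39% in WT IP, 1.37% in KO input and 0.867% in KO IP. The order of the group means held in each, but with genome-list counts the WT IP and WT input libraries overlapped.

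For WT IP against WT input, 9 members were called, with DESeq2 5, with uncalled libraries at 0 23, at the list minimum 18, and 5 to 9 with a library left out. For KO IP against KO input the count was 5, with DESeq2 2, with a mean count of at least 50 2, with uncalled libraries at 0 26, at the list minimum 15, and 4 to 6 with a library left out. For WT IP against KO IP it was 6, with DESeq2 3, with uncalled libraries at 0 26, at the list minimum 18, and 2 to 5 with a library left out. For the inputs it was 8, with DESeq2 2, with the genome lists alone 5, and 0 to 4 with a library left out. For the interaction it was 5, with peak totals as library sizes 3, with DESeq2 2, with uncalled libraries at 0 or at the list minimum 9, and 1 to 5 with a library left out. The fits with filled libraries test more regions, and their direction is partly set by the filling. Of 803 refits of 66 named results, 125 lost the call, 29 gained it and 0 reversed a called direction. The cause of the other changes was not tested.

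The labels number the replicates in each group but do not say that a number marks a shared culture or day. Same-numbered libraries deviated together over 186 regions (correlations of 0.49 and 0.23 for IP and input of WT and KO, 0.31 for the IPs and 0.17 for the inputs). With the replicate block, 10, 6, 6 and 6 members were called for the pulldown in WT, in KO, the IPs and the interaction, and 16 in place of 8 for the inputs. Chosen after seeing the data, a peak in a single WT IP in place of both gave 24 and 29 regions without a KO IP peak, and the highest list minimum gave 19, beside 21. Depth limits low regions most, since fewer than 10 counts are not listed. An uncalled KO IP region may have held up to 192 CPM in reads that clustered, and reads that formed no cluster have no such bound.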
